A study of Mus musculus with 11 samples.

Results

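The 55 genes described here make the machinery of ribosome biogenesis and rRNA processing. They were chosen by known role, as core members of RNA polymerase I and its factors, of the small nucleolar ribonucleoproteins (snoRNPs), of the nucleolus and of the assembly of the small and large ribosomal subunits. The rule has no threshold on a measured value, but the list was drawn up with earlier results of these libraries known, so the direction in proliferation medium is not independent evidence. All 55 were found among the 53801 genes of the tables. Their RNA was measured by sequencing of primary neural stem cells (NSCs) taken from the hippocampus of mid-gestation mouse embryos and cultured for 7 days. Per the labels, proliferation medium held the growth factors EGF and bFGF, which are not among the listed components of differentiation medium. Cells in proliferation medium received 1 µM 4HBP (3 libraries) or the vehicle EtOH (3 libraries), and cells in differentiation medium received 1 µM 4HBP (3 libraries) or EtOH (2 libraries). No genetic change is given for any group, and the study names C57BL/6 as the strain of its mice, while the labels of these cultures give no strain. The labels spell the compound out as 4-Hydroxybenzoic acid, while the study's text names it 4-hydroxybenzophenone, and the abbreviation 4HBP is used here. No source says whether replicates were separate isolations of cells, so p-values measure the spread between these libraries, which may be partly technical.

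A ribosome starts in the nucleolus, where RNA polymerase I transcribes a long precursor rRNA. Box C/D snoRNPs methylate this precursor and box H/ACA snoRNPs convert chosen uridines to pseudouridine, while the small subunit processome and the large subunit assembly factors fold it, cut it and load ribosomal proteins onto it. Stem and progenitor cells that grow and divide invest heavily in this pathway, and its genes are well-known targets of the MYC family of transcription factors.

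Each library held between 20822921 and 23438463 expected counts, so that 3 counts, taken as the smallest detectable amount, correspond to 0.128 to 0.144 CPM, the count of a gene scaled to a common library total. The lowest count of any of the 55 genes in any library was 194, and all 55 passed the filter on low counts in every comparison. Values by library are CPM normalised by the trimmed mean of M-values (TMM). Libraries spread more in proliferation medium, with a biological coefficient of variation of 0.117, than in differentiation medium, where it was 0.0368. Replicate 3 of 4HBP in proliferation medium stood apart from its group, with a chi-square per gene of 23.8 and 21.5 against replicates 1 and 2, which differed from each other by 5.34. Neural stem cell markers summed to 4310.1 to 5278 CPM in proliferation medium and to 1586 to 1611 CPM in differentiation medium. Markers of the oligodendrocyte lineage summed to 1755 to 3329 CPM in proliferation and to 6768 to 7089 CPM in differentiation medium. In the same order of media, astrocyte markers summed to 2874 to 5245 and 6234 to 6490 CPM. Neuronal markers summed to 942 to 1056 and 900 to 938 CPM. Map2 made up most of that sum, with means of 836 and 667 CPM in vehicle cultures. There, 4 of 6 neuronal markers were called higher in differentiation medium and 1 lower (edgeR, adjusted p under 0.05). Their median log2 fold change was 0.45. For neural stem markers 1 of 7 was called higher and 6 lower, and for astrocyte markers 4 of 5 higher and 1 lower. Of all genes, 31.4% were called higher and 31.5% lower. The 5 microglial markers summed to at most 3.71 CPM and the 3 endothelial markers to at most 0.594 CPM in any library.

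Levels per transcript length, on the deposited TPM scale, spread widely among the 55 genes. Npm1 and Ncl, which encode the abundant nucleolar proteins nucleophosmin and nucleolin, had a mean over the 11 libraries of 636 and 295 TPM. Rrp1, a large subunit factor, followed with 201 TPM and Nop58, a core protein of box C/D snoRNPs, with 132 TPM. The median of the 55 was 28.8 TPM. At the low end stood Heatr1 at 9.80, Utp20 at 9.16, Polr1b at 9.11 and Rrp12 at 7.78 TPM. The order of these last 4 is within the spread over libraries, since Utp20 alone ranged from 5.95 to 14.1 TPM. RSEM also assigned 10 of the 55 genes an effective length that differed over 1.5-fold between libraries. Changes are given on the count scale, which does not correct for such differences. Of these 10, Tsr1, Nop58 and Utp20 are among the genes called with 4HBP in proliferation medium. Their mean TPM there was 31.7, 200 and 10.7 with 4HBP and 27.9, 148 and 6.08 with vehicle, a small rise for Tsr1. In GRCm38 with the GENCODE annotation, Utp20 lies at chr10:88746607-88826804 on the minus strand, Nop14 at chr5:34638536-34660148 (minus), Polr1a at chr6:71909053-71984935 (plus) and Nop2 at chr6:125131909-125144753 (plus). Npm1 lies at chr11:33152287-33163206 (minus) and Imp3 at chr9:56937475-56938398 (plus), and each value sums the reads over all annotated exons of the gene.

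The first question was what 4HBP did to this pathway in NSCs kept in proliferation medium. The ribosome biogenesis genes were higher on the whole, in that 53 of the 55 genes had a log2 fold change above 0 and 18 were called higher at an adjusted p under 0.05 (edgeR's quasi-likelihood test, Benjamini-Hochberg), while none was called lower. Of all 14449 genes tested, 7.43% were called, 3.74% higher and 3.69% lower. The median change of the 55 genes was 0.35 on the log2 scale, a fold of 1.28, against a median of 0.0014 over all genes, of which 50.2% lay above 0. In 38 of the 55 genes, every 4HBP library was above every vehicle library, and in none was the order the opposite, where 16.1% and 15.1% of all genes showed such separation upward and downward. At an unadjusted p under 0.05, 39 of the 55 genes (70.9%) were higher and 0 lower, against 25.1% of all genes in either direction. Because the RNA is from whole cultures, a change in the number of cells of a type and a change in RNA per cell cannot be told apart.

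Against the mean of the vehicle libraries, the median of the 55 genes was 0.37, 0.41 and 0.27 higher on the log2 scale in 4HBP replicates 1, 2 and 3, with 52, 55 and 43 of the 55 genes above that mean. Replicate 3 was therefore the weakest of the 3. The vehicle libraries differed among themselves, with medians of −0.0095, −0.13 and 0.14 and with 24, 3 and 52 of the 55 genes above their own mean. Vehicle replicate 3 thus lay nearest to the 4HBP libraries, and the smallest gap between the groups was 0.27 against 0.14. Over all genes, these medians stayed between −0.0042 and 0.010. The 55 genes together took 0.484, 0.493 and 0.449% of all counts with 4HBP and 0.386, 0.352 and 0.427% with vehicle, so the groups did not overlap.

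**Figure D1:**
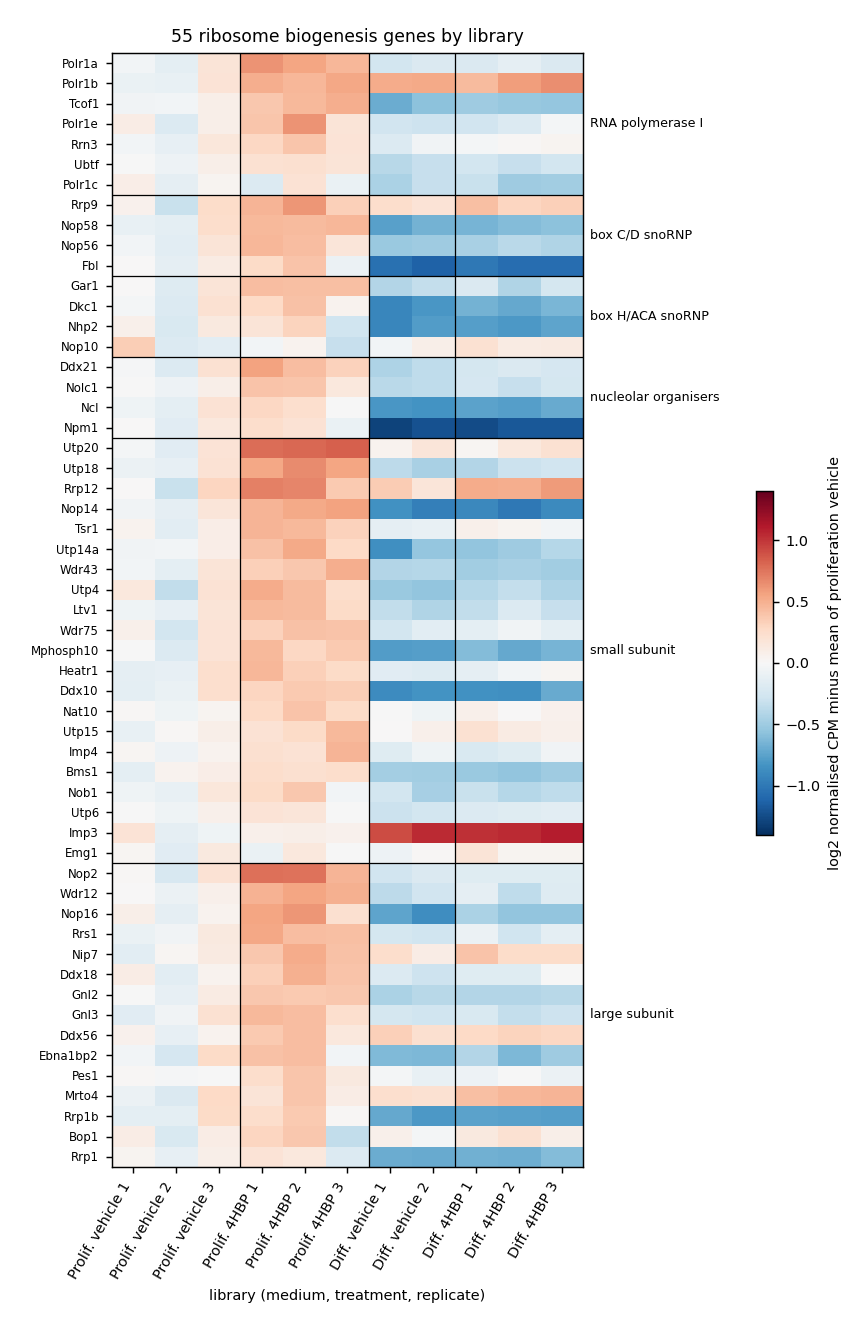
Each row is 1 of the 55 genes, grouped by role, and each column is 1 of the 11 libraries; colour gives the log2 normalised CPM minus the mean of the 3 vehicle libraries in proliferation medium. Most genes are red in the 3 columns of 4HBP in proliferation medium (52, 55 and 43 of 55 above 0). Most are blue in the 5 differentiation columns, where 10 to 15 of 55 lie above 0, Imp3 and Polr1b among them.

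Among the 7 genes of RNA polymerase I and its factors, 3 rose and 4 did not pass the test, with a class median of 0.41. Polr1a encodes the largest, catalytic subunit of the enzyme. It was at 59.5, 55.9 and 69.4 normalised CPM with vehicle and at 95.1, 90.2 and 84.9 with 4HBP, without overlap, a log2 fold change of 0.55 ± 0.093 (SE, adjusted p = 0.0132). Polr1b, the second large catalytic subunit, went from 12.7, 12.5 and 15.5 to 19.2, 18.6 and 19.7 CPM, with all 4HBP libraries above the vehicle libraries and a log2 fold change of 0.50 ± 0.12 (adjusted p = 0.0351). Tcof1 encodes treacle, a nucleolar protein needed for transcription of rRNA genes. Its values were 36.9, 37.1 and 40.5 with vehicle and 49.5, 52.1 and 54 CPM with 4HBP, again separate, with a log2 fold change of 0.44 ± 0.076 (adjusted p = 0.0137). Ubtf, the factor that binds and opens rRNA genes and the most abundant of this class per length, gave 153, 145 and 161 against 177, 179 and 173 CPM. Its groups did not overlap, but the change of 0.21 ± 0.068 did not pass (adjusted p = 0.102). Rrn3, which brings the polymerase to the promoter, was at 0.29 (adjusted p = 0.0842), and Polr1c, a subunit that RNA polymerase III also uses, was at −0.018 (adjusted p = 0.95).

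Of the 21 genes of small subunit assembly, 7 rose and the median was 0.36. Utp20, a very large scaffold protein of the small subunit processome, had the largest change of all 55 genes. It was at 35.1, 32.2 and 40.8 CPM with vehicle and at 61.9, 62.6 and 64 CPM with 4HBP, and the lowest 4HBP library stood well above the highest vehicle library. The log2 fold change was 0.80 ± 0.093, or 1.74-fold (adjusted p = 0.00419). Utp18, a WD-repeat protein of the same particle, went from 31.9, 31.1 and 38.9 to 49.2, 53.4 and 49.7 CPM, which is 0.58 ± 0.098 on the log2 scale (adjusted p = 0.0132). Nop14, another processome component, was at 67.1, 63.4 and 77.9 CPM with vehicle and 96.2, 99.7 and 102 CPM with 4HBP (log2 fold change 0.52 ± 0.087, adjusted p = 0.0131). Neither gene's groups overlapped, and vehicle replicate 3 was the highest of the controls in both. Tsr1, a GTPase-like factor of late small subunit maturation, had values of 37.5, 32.8 and 38.8 against 50.3, 49.6 and 45.4 CPM and a log2 fold change of 0.41 ± 0.087 (adjusted p = 0.0261). Utp14a, which activates a processome helicase, had 27.8, 28.2 and 30.8 against 38.3, 41.6 and 35 CPM (0.41 ± 0.092, adjusted p = 0.033). Both were higher in all 3 treated libraries. The remaining calls were Wdr43 at 0.40 (adjusted p = 0.0374) and Nat10, the rRNA acetyltransferase, at 0.32 (adjusted p = 0.0367).

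The 15 genes of large subunit assembly gave 6 calls and a median of 0.37. Nop2, an rRNA cytosine methyltransferase long used as a marker of proliferating cells, was at 34.4, 29.2 and 39.2 CPM with vehicle and at 57.9, 57.4 and 47.3 CPM with 4HBP. Replicate 3 of 4HBP was the lowest of the treated libraries but still above the vehicle range, and the log2 fold change was 0.66 ± 0.12 (adjusted p = 0.0169). Wdr12 works in a complex with Pes1 and Bop1 in processing of the large subunit rRNA. It went from 23.8, 22.4 and 25 to 33.3, 34.8 and 33.5 CPM without overlap, a change of 0.51 ± 0.084 (adjusted p = 0.0121), whereas its partners did not pass, with Pes1 at 0.26 (adjusted p = 0.074) and Bop1 at 0.14 (adjusted p = 0.67). Replicate 3 with 4HBP was the lowest of all 6 libraries for Bop1 and the other 2 treated libraries were the highest, at 46.2, 37.2 and 46.4 CPM with vehicle and 53.2, 56 and 34 with 4HBP.

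Rrs1, a factor for assembly of the central part of the large subunit, was at 39.8, 41 and 46.6 CPM with vehicle against 61.9, 57.1 and 56.6 with 4HBP, and rose by 0.46 ± 0.084 (adjusted p = 0.0169). Gnl2, a nucleolar GTPase that acts in large subunit export, gave 76, 70.9 and 83.1 against 99, 98.3 and 99.7 CPM, with 4HBP libraries almost equal to each other, and a rise of 0.37 ± 0.075 (adjusted p = 0.0239). Ddx18, an RNA helicase, had 33.1, 27.9 and 31.9 against 39, 43.6 and 40.9 CPM (0.41 ± 0.090, adjusted p = 0.0301). The groups of all 3 genes were separate. Gnl3, which encodes nucleostemin, a GTPase first known from stem cells, stood at 0.37 and did not pass (adjusted p = 0.072). At the threshold, Nip7 at 0.43 (adjusted p = 0.0436) and the helicase gene Ddx21 at 0.43 (adjusted p = 0.0441) lay just inside. Nop16 at 0.47 (adjusted p = 0.0504) and Ltv1 at 0.39 (adjusted p = 0.0515) lay just outside.

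The 2 snoRNP classes and the nucleolar organisers had medians of 0.40 (box C/D), 0.17 (box H/ACA) and 0.25. Of the 4 box C/D proteins, Nop58 rose, from 71.6, 70.1 and 91.4 CPM with vehicle to 106, 105 and 106 CPM with 4HBP, a log2 fold change of 0.45 ± 0.10 (adjusted p = 0.0339). Fibrillarin (Fbl), the methyltransferase of the same particle, was at 0.21 (adjusted p = 0.318). None of the 4 box H/ACA proteins passed. Nhp2, the most abundant of them per length, had 66.3, 54.4 and 69.5 CPM with vehicle and 71.7, 78.3 and 51.9 with 4HBP, so that replicate 3 was the lowest of all 6 libraries and the other 2 treated libraries the highest. Dkc1, the pseudouridine synthase, was at 0.25 (adjusted p = 0.253) and Nop10 at −0.12, the lowest of the 55 genes (adjusted p = 0.711). Among the 4 nucleolar organisers, Ddx21 was the call. Npm1 was at 550.2, 492 and 604 CPM with vehicle and 648, 628 and 513 with 4HBP, with overlapping groups and a 95% interval of −0.13 to 0.37 around 0.12. Ncl was at 0.17 with an interval of −0.083 to 0.43.

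**Figure D2:**
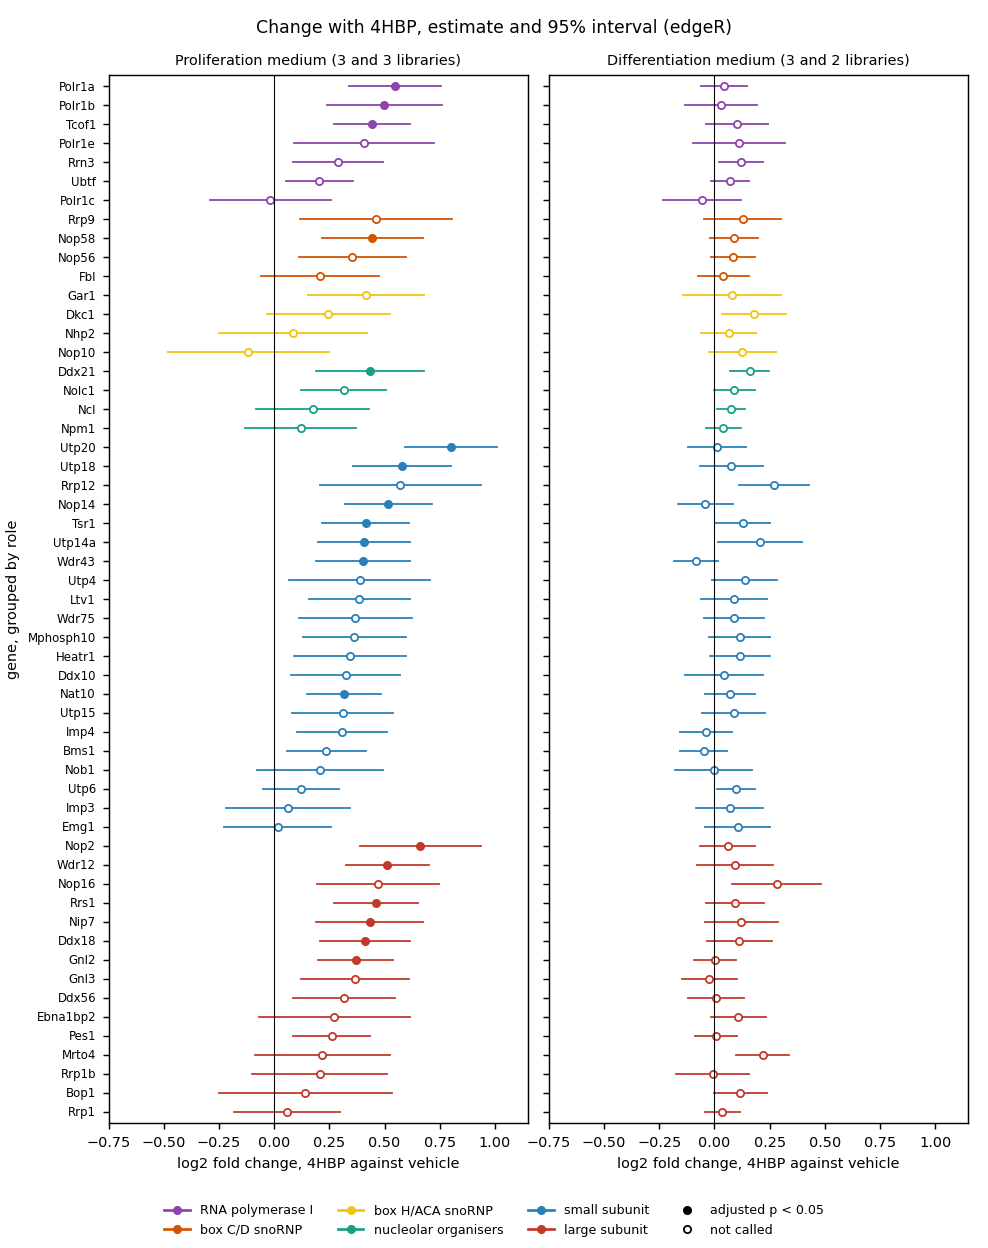
Points are the log2 fold change of 4HBP against vehicle for each of the 55 genes and lines its 95% interval, in proliferation medium at left and differentiation medium at right; filled points have an adjusted p under 0.05. At left 53 points lie above 0 and 18 are filled, and at right 47 lie above 0 and none is filled.

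Change and level can be set side by side as a description. The 11 genes with the highest mean TPM (58.5 to 636) had a median of 0.21 with 2 calls, and the other 44 (7.78 to 49.7 TPM) had a median of 0.38 with 16 calls. Spearman's rho between mean TPM and log2 fold change was −0.49 across the 55 genes and 0.0091 across all genes tested, and between gene length and log2 fold change it was 0.34 and 0.032. All points come from the same 6 libraries, and level and length are not independent of each other. The highly expressed genes that stayed near 0 included Rrp1, with 283, 256 and 291 CPM for vehicle and 315, 307 and 242 for 4HBP, and a change of 0.058 (adjusted p = 0.788). Utp6, the most abundant small subunit gene per length, had 91.8, 88.7 and 97.1 against 106, 104 and 92.2 CPM and a change of 0.12 (adjusted p = 0.368). In both, the lowest 4HBP library was replicate 3 and lay inside or below the vehicle range.

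**Figure D3:**
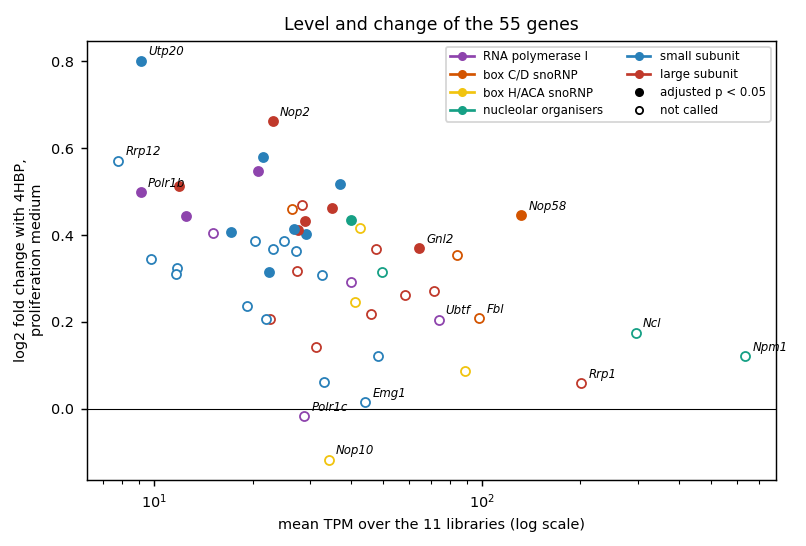
Each point is 1 of the 55 genes, with its mean TPM over the 11 libraries on a log scale along the horizontal axis and its log2 fold change with 4HBP in proliferation medium on the vertical axis; filled points have an adjusted p under 0.05. Utp20 (9.16 TPM) is the highest point and Npm1 (636 TPM) lies at 0.12.

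Cell cycle and astrocyte markers stood apart between the treatments in the same libraries, and other marker lists did not do so clearly. Neural stem markers summed to 4310 to 4942 CPM with 4HBP and 4393 to 5278 CPM with vehicle. Oligodendrocyte lineage markers summed to 1755 to 2989 and 2722 to 3329 CPM, and neuronal markers to 942 to 946 and 961 to 1056 CPM. None of these 7 neural stem, 5 oligodendrocyte lineage and 6 neuronal markers was called. The 8 cell cycle markers summed to 489 to 939.9 CPM with 4HBP and to 971 to 1131 CPM with vehicle in proliferation medium, with a median log2 fold change of −0.44, all 8 below 0 and none called. The 5 astrocyte markers summed to 2874 to 3374 CPM with 4HBP and to 4231 to 5245 CPM with vehicle, and 3 of the 5 were called lower, with Gfap at −0.68 (adjusted p = 0.00987). Their part in the rise of the ribosome biogenesis genes was not tested. The count of calls depended on single libraries: without 4HBP replicate 3 it was 29 of 55, without vehicle replicate 3 it was 25, without 4HBP replicate 1 it was 8, and without 4HBP replicate 2 it was 3. Without vehicle replicate 1 or without vehicle replicate 2, Utp20 was the 1 gene of the 55 called. Over all genes, calls also moved widely in these fits, from 107 to 1429, against 1074 with every library. The median change of the 55 genes stayed between 0.28 and 0.45. In limma on log2(CPM + 1) no member passed the adjustment, with 40 of 55 at an unadjusted p under 0.05 against 18.3% of all genes. In a fit of all 11 libraries 39 were called, where 40 of 55 and 31.1% of all genes had an unadjusted p under 0.05. Calls over all genes ranged from 18 to 2668 among the alternative settings.

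A wider list of 118 other ribosome biogenesis genes, also chosen with earlier results of these data known, went the same way in the same libraries. Of the 118, 24 were called higher, 0 were called lower and 108 were above 0, with a median of 0.22. Of all genes tested, 3.74% were called higher and 50.2% lay above 0. Large subunit factors gave 16 of 46 calls and small subunit factors 7 of 33, while none of the 21 genes of RNA cleavage and decay and none of the 9 further RNA polymerase I genes passed. Noc3l, a large subunit factor, was at 26.3, 27.3 and 28.2 CPM with vehicle and 41.2, 42.2 and 46.3 with 4HBP (log2 fold change 0.67 ± 0.082, adjusted p = 0.00479). Wdr36, a processome component, was at 26.6, 22.7 and 28.3 against 41.7, 46.4 and 42.1 CPM (0.75 ± 0.099, adjusted p = 0.00656). Nop9, an RNA-binding factor of the small subunit, was at 27, 23.8 and 32.3 against 46.7, 56.8 and 61.5 CPM (0.99 ± 0.13, adjusted p = 0.00656), the largest change of the 118. All 3 were separate between the groups, and the highest 4HBP value was replicate 3 for Noc3l and Nop9. The 3 genes with the smallest p among those below 0 did not pass, namely Rpp30 of ribonuclease P at −0.25 (adjusted p = 0.264), the rRNA methyltransferase gene Bud23 at −0.19 (adjusted p = 0.317) and Rbm28 at −0.10 (adjusted p = 0.598).

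The genes of the MYC and MXD families, which bind the E-box CACGTG as partners of MAX, were listed with Max itself and Mlx. The listed genes did not move as 1 group. Myc was at 60.5, 68.8 and 74.9 CPM with vehicle and 67.6, 66.5 and 70.8 with 4HBP, with overlapping groups and a log2 fold change of 0.0056 (95% interval −0.19 to 0.20). Mycn was low, at 3.17, 4.24 and 2.18 CPM with vehicle and 1.42, 1.84 and 2.06 with 4HBP, so that the groups were separate by a narrow gap, and its change of −0.85 ± 0.29 did not pass (adjusted p = 0.109, and 0.0291 in the fit of all 11 libraries). Mga, a large MAX partner, was higher, at 105, 104 and 101 against 128, 122 and 142 CPM (0.34 ± 0.074, adjusted p = 0.0288), and Mxd4, a MAX partner that represses, was lower at −0.33 ± 0.083 (adjusted p = 0.045). These were the 2 calls among the 11 genes of this list. Mga kept its call without 4HBP replicate 3 and lost it without any other single library (adjusted p = 0.0519 to 0.112), with the replicate block (adjusted p = 0.0792) and in limma on log2(CPM + 1) (adjusted p = 0.0908).

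Promoter sequence was read for the 47 of 55 genes found in the RefSeq table of build GRCm38.p6, over 250 bases before and 50 after the transcription start. The E-box CACGTG stood in 10 of the 47 (21.3%), in 11.6% of the 10613 tested genes with such a window and in 8.09% of all 27025. The ETS core CCGGAAG, read on both strands, stood in 18 of the 47 (38.3%), in 19.5% of tested genes and in 9.93% of all. The GC box GGGCGG was about as common in the 47 (70.2%) as in tested genes (69.3%). Neither TGACGTCA, the cAMP response element, nor the palindromic site of NRF1 was found in the 47, where 3.63% and 2.30% of tested genes had them. E-box, cAMP response element and NRF1 site read the same on both strands, and none of the motifs contains another. A match in this window is a description and not evidence of binding. The windows around 4 upstream E-boxes are shown because they carry the MYC-type motif in capitals and belong to genes on either side of the threshold. Each reads 5′ to 3′ on the gene's strand, as RefSeq GRCm38.p6.
Nop2: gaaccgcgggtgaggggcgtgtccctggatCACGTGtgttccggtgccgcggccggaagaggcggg
Utp18: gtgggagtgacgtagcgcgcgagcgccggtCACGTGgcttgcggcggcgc
Rrn3: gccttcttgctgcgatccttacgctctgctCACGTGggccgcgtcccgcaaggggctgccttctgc
Imp4: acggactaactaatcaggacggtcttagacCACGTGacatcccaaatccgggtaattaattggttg
The Nop2 window lies at chr6:125131793-125131858 on the plus strand, with the E-box 60 bases before the start and an ETS core further along in lower case. Utp18's is at chr11:93885767-93885816 on the minus strand and ends at the base before the start. The windows of Rrn3 (chr16:13780621-13780686) and Imp4 (chr1:34439678-34439743) are on the plus strand. Nop2 and Utp18 were called with 4HBP in proliferation medium, while Rrn3 at 0.29 and Imp4 at 0.31 were not. Of the 10 genes with an E-box, 5 were called and the median change was 0.39, and of the 37 without, 10 were called and the median was 0.32. For the ETS core, 4 of 18 genes with it and 11 of 29 without it were called, with medians of 0.35 and 0.35.

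Some of the genes are hosts of snoRNA genes. In the GENCODE annotation, 7 of the 55 (12.7%) held a snoRNA gene within them on the same strand, against 1.64% of 13634 tested protein-coding genes. They were Dkc1, Gnl3, Ncl, Nop56, Nop58, Tsr1 and Wdr43, most snoRNAs being guides for the modification of rRNA. In proliferation medium, 3 of these 7 were called higher and their median was 0.37, against 15 of 48 and 0.33 in the rest. Some values are less certain: Npm1, Nip7 and Wdr12 had counts that were not whole in all 11 libraries, so RSEM shared reads between them and other genes. Such counts stood in at least 1 library for 18 of the 55 genes (32.7%), with 7 libraries for Polr1b and 6 each for Utp14a and Imp3. Of the 55 genes, 20 overlap a gene on the other strand, and the library kit marks strand, but whether the counting used it is not given in the sources used here.

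The same question was asked of cells in differentiation medium. None of the 55 genes was called by edgeR, which called 2.55% of all 15484 genes, 1.26% higher and 1.29% lower. DESeq2 and limma called none of the 55 either, and calls over all genes ranged from 0 to 778 among the alternative settings. At an unadjusted p under 0.05, DESeq2 had 4 of the 55 and 4.93% of all genes. Limma on log2(CPM + 1) had 6 of the 55 and 10.3% of all genes. In edgeR, 10 of the 55 (18.2%) had an unadjusted p under 0.05, all higher. Of all 15484 genes, 15.9% had such a p in either direction, and 1230 genes had it and were higher. The median log2 fold change was 0.088, a fold of 1.06, with 47 of 55 genes above 0. Over all genes the median was −0.0010 with 49.7% above 0. In 28 genes every 4HBP library was above both vehicle libraries and in 2 (Bms1 and Wdr43) below them, where all genes gave 17.4% and 15.5%. Mrto4, a large subunit factor related to a ribosomal stalk protein, had the smallest p. Its values were 29.7 and 29.3 CPM with vehicle and 33.7, 34.9 and 35 with 4HBP, a small and separate difference of 0.22 ± 0.057 (adjusted p = 0.055). Ddx21 at 0.16 (adjusted p = 0.0575) and Rrp12 at 0.27 (adjusted p = 0.073) came next.

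Here the libraries lay close together and the intervals were narrow. They bound the difference between these libraries, whose spread may be partly technical. Utp20 was at 37 and 40.4 CPM with vehicle and 36.7, 39.7 and 41.6 with 4HBP, with overlapping groups and a 95% interval of −0.12 to 0.15. Nop2 had an interval of −0.066 to 0.18, Polr1a of −0.059 to 0.15 and Nop14 of −0.17 to 0.083. The median width of the interval over the 55 genes was 0.26 in differentiation medium and 0.49 in proliferation medium. Of the 55 genes, 46 were above 0 in both media, a count almost fixed by the 53 above 0 in proliferation and the 47 in differentiation medium. The cell cycle markers summed to 208 to 236 CPM with 4HBP and to 174 to 201 CPM with vehicle in differentiation medium, the opposite order to proliferation medium. Without the filter on low counts 3 of the 55 genes were called, and with the replicate block 3 were called.

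Whether the 4HBP effect itself differed between the media was tested in 1 fit over all 11 libraries. The change was larger in proliferation medium for 51 of the 55 genes, by a median of 0.26 on the log2 scale, and 7 passed, all in that direction. Of all 15920 genes, 4.49% passed, 2.01% upward and 2.48% downward. The 7 were Utp20 (difference 0.78 ± 0.12, adjusted p = 0.00589), Nop14 (0.55, adjusted p = 0.0187), Polr1a (0.50, adjusted p = 0.0319), Wdr43 (0.48, adjusted p = 0.0388), Nop2 (0.59, adjusted p = 0.0456), Gnl2 (0.36, adjusted p = 0.0457) and Utp18 (0.49, adjusted p = 0.0459). They belong to RNA polymerase I (1), small subunit assembly (4) and large subunit assembly (2), and no snoRNP or nucleolar organiser gene is among them. The count rested on single libraries. It was 14 without vehicle replicate 3 and 12 without 4HBP replicate 3 of proliferation medium, 5 without 4HBP replicate 1, and 2 without 4HBP replicate 2 or vehicle replicate 1 or 2 there. In differentiation medium it was 0 without vehicle replicate 2, 1 without vehicle replicate 1 or 4HBP replicate 1 or 2, and 2 without 4HBP replicate 3. The median difference stayed between 0.18 and 0.33.

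**Figure D4:**
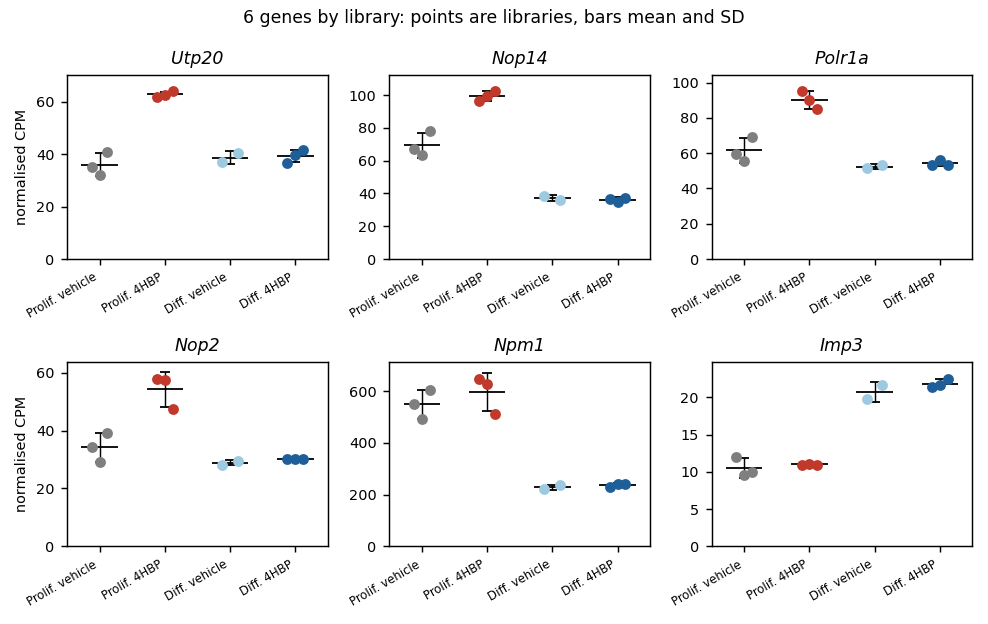
Points are the normalised CPM of 6 genes in each library, by medium and treatment, with the mean (line) and SD (bar) of each group of 3 libraries, or 2 for vehicle in differentiation medium; axes start at 0. Utp20, Nop14, Polr1a and Nop2 separate 4HBP from vehicle in proliferation medium, Npm1 falls between the media and Imp3 rises.

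The last comparison was between the media. In vehicle cultures, 31 of the 55 genes were lower in differentiation than in proliferation medium, 3 were higher and 21 were not called, with a median of −0.35 against 0.021 over all genes, a direction that turned to 0.037 in deposited TPM, where the median of all genes was 0.39. The background here was high, since 62.9% of the 15308 genes tested were called, 31.5% lower and 31.4% higher. Libraries of both media were fully separate downward in 37 and upward in 3 of the 55, against 38.2% and 39% of all genes. Npm1 fell from 550.2, 492 and 604 to 222 and 235 CPM, to 0.419 of its level in proliferation medium (log2 fold change −1.25 ± 0.088, adjusted p = 2.56e-06). Fbl went from 85.1, 78 and 92.1 to 41.2 and 38.6 CPM (−1.08 ± 0.088, adjusted p = 6.38e-06) and Nop14 from 67.1, 63.4 and 77.9 to 38.4 and 35.8 CPM (−0.90 ± 0.098, adjusted p = 4.21e-05). None of these 3 genes overlapped between the media. All 4 nucleolar organisers fell on the count scale, as did 3 of 4 box C/D and 3 of 4 box H/ACA proteins, with medians of −0.61, −0.61 and −0.61 there and of −0.29, −0.57 and −0.21 in TPM. RNA polymerase I (3 of 7 lower), small subunit (11 of 21) and large subunit genes (7 of 15) had medians of −0.28, −0.27 and −0.26, which in TPM were 0.18, 0.037 and 0.15. Of the 31 genes called lower, 20 were below 0 in TPM as well, Npm1, Fbl and Nop14 among them, and 11, such as Ddx21, Ubtf and Utp18, were above 0.

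The 3 genes that rose were Imp3, Polr1b and Ddx56. Imp3, which binds the box C/D guide RNA of the processome together with Imp4 and Mphosph10, was at 12, 9.57 and 10.02 CPM in proliferation medium and at 19.7 and 21.6 in differentiation medium (0.98 ± 0.12, adjusted p = 9.66e-05). Its partners did not rise, with Imp4 at −0.11 (adjusted p = 0.229) and Mphosph10 lower at −0.78 (adjusted p = 0.000232). Polr1b went from 12.7, 12.5 and 15.5 to 19.3 and 19.6 CPM (0.53 ± 0.12, adjusted p = 0.00313), while Polr1c was at −0.38 (adjusted p = 0.00757) on counts and above 0 in TPM. Ddx56, a helicase of large subunit assembly, was at 27, 23.9 and 26.7 against 32.5 and 30.1 CPM (0.28, adjusted p = 0.0164). In all 3, both differentiation libraries were above all vehicle libraries of proliferation medium.

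Under 4HBP, 44 of the 55 genes were lower in differentiation medium and 2 higher, with a median of −0.66, where 67.4% of the 15050 genes tested were called, 34.1% lower and 33.3% higher. Complete separation was seen downward in 44 and upward in 3, against 36.8% and 36.3% of all genes. Of the 44 genes called lower, 31 were those called lower in vehicle cultures, where 31.5% of all genes were called lower. The same overlap over all genes was not counted. Nop14 fell most, from 96.2, 99.7 and 102 to 36.9, 34.6 and 37.3 CPM (−1.45 ± 0.060, adjusted p = 1.44e-07), and Imp3 (1.00) and Mrto4 (0.23) were higher. The difference between the falls under 4HBP and under vehicle is the same contrast as the difference of the 4HBP effect between the media, for which 7 genes passed. Cell cycle markers were lower in differentiation medium for 8 of 8 genes in either treatment, with medians of −2.83 in vehicle and −1.98 in 4HBP cultures, and the part of this in the falls was not tested. In TPM the median under 4HBP was −0.31, with 14 of 55 above 0. Relative to the median of all genes, the 55 genes were at −0.35 in TPM and −0.37 on counts in vehicle cultures, and at −0.63 and −0.67 under 4HBP. The short mitochondrial gene mt-Atp8 took 13.0 to 15.9% of all TPM in proliferation medium and 4.48 to 4.79% in differentiation medium.

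**Figure D5:**
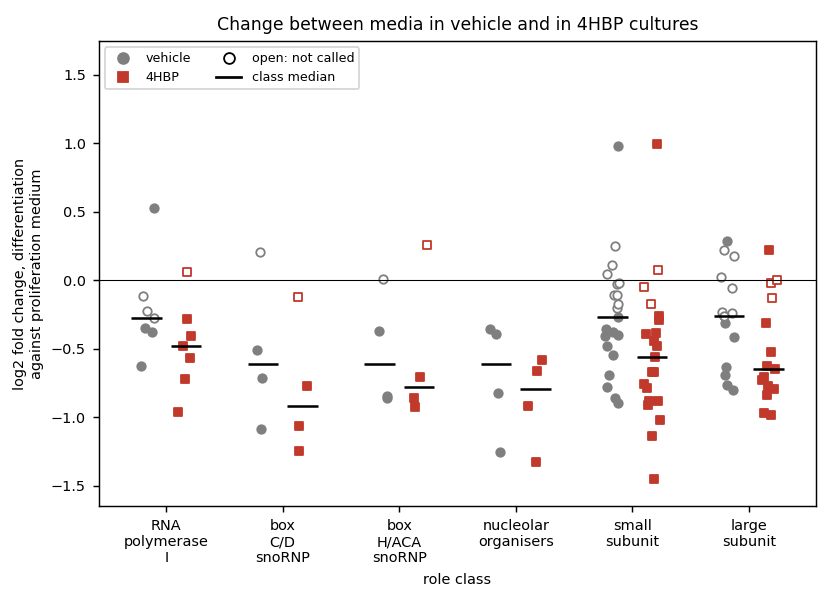
Points are the log2 fold change of differentiation against proliferation medium for the 55 genes by role, in vehicle cultures (grey circles) and 4HBP cultures (red squares); filled points have an adjusted p under 0.05 and black lines are class medians. The medians of the nucleolar organisers and snoRNP classes lie lowest in vehicle cultures, near −0.61 on this count scale (−0.57 to −0.21 in TPM, where the other classes are above 0), and Imp3 lies near 1 in both treatments.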

How the data were processed

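RNA of 11 cultures was sequenced from poly(A)-selected, strand-marking libraries. Per the labels and the study's methods, the authors checked reads with FastQC 0.11.5, trimmed them with cutadapt, aligned them with Bowtie2 2.2.9 to mouse build mm10 (GRCm38) and deposited expected counts and TPM per gene made with RSEM 1.3.0, library by library. The strand setting of the counting is not given in the sources used here.

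The expected counts were rounded and tested with edgeR 4.0.16 in R 4.3.3 (filterByExpr by group, TMM, quasi-likelihood F test, Benjamini-Hochberg adjustment over all genes tested, threshold 0.05). Each comparison was fitted on the libraries of its groups alone, and the difference of the 4HBP effect between the media on all 11. Standard errors were taken from the F statistic, and intervals cover 95%. Displayed CPM used TMM factors over all 11 libraries. The exact permutation test of 3 against 3 libraries cannot go below a two-sided p of 0.1 and was not used. The fitting steps were tested on simulated data.

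The members, the wider lists and the markers were chosen with earlier results of these data known. Values in every library were given, by rule, for the 12 called members with the smallest p for 4HBP in proliferation medium, the 1 with the smallest p in differentiation medium, the 3 that fell and the 3 that rose most between the media with vehicle, the most abundant of each role, the 3 wider-list genes with the smallest p in each direction, and Myc, Mycn and the MYC or MXD gene with the smallest p. The library values of Bop1 and all TPM comparisons were added after their values were seen.

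Alternatives were library totals without TMM, no filter on low counts, DESeq2 1.42.0, limma 3.58.1 on log2(CPM + 1), limma-voom with group quality weights, all 11 libraries in 1 fit, a block for replicate number, and fits without each library in turn. Of 119 genes on the wider list 118 were matched by symbol. Promoters came from RefSeq (GRCm38.p6) and gene structure from GENCODE. Libraries of 20822921 to 23438463 counts put every member far above the floor of 3 counts, and this floor covers counting error only.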

Additional observations from a re-analysis of the deposited data

Results flagged for a closer look

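For 7 genes the change with 4HBP differed between proliferation and differentiation medium by a test of that difference (edgeR's quasi-likelihood test on all 11 libraries, Benjamini-Hochberg adjusted over 15920 genes). The log2 fold change was larger in proliferation medium by 0.78 for Utp20, 0.55 for Nop14, 0.50 for Polr1a, 0.48 for Wdr43, 0.59 for Nop2, 0.36 for Gnl2 and 0.49 for Utp18. Libraries of the 2 media also differed in spread, with a biological coefficient of variation of 0.117 in proliferation and 0.0368 in differentiation medium. With limma-voom and quality weights per group, which allow for unequal spread, each of these 7 genes passed. Adjusted p in that refit of the same libraries ran from 0.0022 for Utp20 to 0.023 for Utp18. In the edgeR fit, 4.49% of all 15920 genes passed, 2.01% upward. With limma on log2(CPM + 1) 1 of the 55 genes passed, and with the replicate block 4. Leaving out single libraries of proliferation medium in edgeR gave 2 to 14.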

How the results depend on the processing

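In proliferation medium the median change of the 55 genes kept its direction in every alternative, at 0.35 to 0.38 on the count scales, 0.32 in TPM and 0.28 to 0.45 without single libraries. The number called, 18, was 26 with library totals or DESeq2, 27 without the filter, 39 with all 11 libraries in 1 fit, 9 with a replicate block, 0 with limma on log2(CPM + 1), and 1 to 29 without single libraries. In differentiation medium, where none was called, 3 were called without the filter, 3 with the replicate block and 0 without any single library. The median there was 0.065 with the block, 0.047 in TPM and 0.065 to 0.095 without single libraries. Between the media, 24 to 38 genes were called in vehicle and 45 to 47 in 4HBP cultures. In TPM the median turned to 0.037 in vehicle cultures and was −0.31 in 4HBP cultures, where the median of all genes shifted by 0.39 and 0.32. The difference of the 4HBP effect, with 7 calls, had 4 with the block, 1 with limma on log2(CPM + 1) and 0 to 14 without single libraries. The cause of these shifts was not tested. Over all genes, calls numbered 18 to 2668 in proliferation medium (1074 as reported) and 107 to 1429 without single libraries. In differentiation medium they numbered 0 to 778 (395 as reported) and 77 to 288 without single libraries, and for the difference of the effects 264 to 1616 (715 as reported) and 124 to 1100.

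Without single libraries, 50 to 55 of the 55 genes were above 0 in proliferation medium. Of the genes given with values in every library by rule, 4, none of them called, changed sign: Rrp1 (−0.012 to 0.17), Nhp2 (−0.035 to 0.25), Rbm28 (−0.22 to 0.010) and Myc (−0.074 to 0.081). Same-numbered libraries did not deviate together (correlations −0.13 to 0.082). With so few libraries per group this cannot show whether they shared an isolation or a batch, and the block was kept as an alternative. Libraries in proliferation medium limit the precision, with a median interval width of 0.49 against 0.26 in differentiation medium.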
